A study of Mus musculus with 5 samples.

Results

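Cycling macrophages are tumor macrophages whose transcripts mark them as making DNA or dividing when they were captured. They were read here by single-cell 5′ RNA sequencing of live cells carrying the leukocyte marker CD45, which were sorted after enzymes had broken up tumors of B16-F10, a mouse melanoma line. A cell barcode was taken as a cycling macrophage when at most 10% of its UMIs (unique molecular identifiers, 1 per captured RNA molecule) were mitochondrial, C1qa, C1qb and C1qc summed to at least 10 UMIs, Mki67 and Top2a summed to at least 2, and Cd3e, Cd3d, Cd3g, Ncr1 and Cd79a were all at 0. The members were thus chosen by their own C1q, Mki67 and Top2a counts, and differences in those genes are no finding. This chose 234 of the 37074 barcodes that passed the mitochondrial limit, out of 37468 in all. The cells were 11 from the anti-PD1-IL15 protein fusion library, 35 from the library of the combination of anti-PD1 and IL15, 61 from the IL15 superagonist library, 72 from the anti-PD1 library and 55 from the PBS (buffer) library. The title of the combination library names the IL15 superagonist where its treatment label names IL15 only. The tumors of all 5 libraries grew from 500000 cells injected under the skin and were taken on day 11, and each treatment is 1 library. The sources used here do not give mouse strain and age, mice per library, doses or dosing times, and the labels' wording puts treatment after the tumor was taken out. With 1 library per treatment, a difference between treatments has no replicate check, and cells of a library are not replicates.

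C1q is the recognition part of the first complement complex, and in tumors macrophages are its main source among leukocytes. Mature macrophages are mostly at rest in the cell cycle, but tissue macrophages can divide in place, and division sits beside monocyte recruitment as a source of macrophages. Mki67 (the Ki-67 antigen) and Top2a (the DNA topoisomerase that untangles chromosomes) are transcribed mostly from S phase through mitosis. A gate on their sum favors cells in those phases but need not leave out every cell in G1 or at rest.

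The barcodes with a C1q sum of at least 10 and no lymphoid UMI, called C1q-high macrophages here, numbered 254 in fusion, 689 in combination, 625 in IL15 superagonist, 1338 in anti-PD1 and 1008 in PBS. Of these 3914 barcodes, 3382 had no Mki67 or Top2a UMI and are called noncycling. The other 298 had exactly 1 such UMI and belong to neither class. The library totals ran between 32832856 UMIs in PBS and 81565425 in fusion. The cycling macrophages themselves summed to 105139 UMIs in fusion, 526464 in combination, 937062 in IL15 superagonist, 971268 in anti-PD1 and 695376 in PBS, so values of the fusion library rest on the fewest molecules. The median cycling macrophage held 7525, 15353, 14656, 12449.5 and 11476 UMIs in fusion, combination, IL15 superagonist, anti-PD1 and PBS, against 6651, 7798, 7778, 7333 and 5728 in noncycling macrophages of the same libraries. A deeper barcode passes a gate of 2 UMIs more easily. Shares and list counts given for thinned cells come from cells thinned to 5000 UMIs and then gated again, which left 122 cycling macrophages, whereas shares of thinned cells that hold a gene's UMI come from 216 members gated on all their UMIs and then thinned. Pairs of libraries shared between 61 and 104 barcode sequences, no barcode was a cycling macrophage in 2 libraries, and 14 cycling macrophages had a barcode sequence that also occurred in another library.

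The share of C1q-high macrophages that were cycling was highest in the IL15 superagonist library under this gate, but not when barcodes with a lymphoid UMI were kept. It was 4.33% in fusion (exact Clopper-Pearson 95% interval 2.18% to 7.62%), 5.08% in combination (3.56% to 6.99%), 9.76% in IL15 superagonist (7.55% to 12.4%), 5.38% in anti-PD1 (4.23% to 6.73%) and 5.46% in PBS (4.14% to 7.04%). The IL15 superagonist interval lies above those of combination, anti-PD1 and PBS and overlaps that of fusion by a small margin. Intervals and floors here cover counting error only. After every macrophage was thinned to 5000 UMIs, which left out shallower cells, the shares were 3.09% in fusion (6 of 194 cells), 2.39% in combination (13 of 543), 5.84% in IL15 superagonist (30 of 514), 4.42% in anti-PD1 (45 of 1019) and 4.60% in PBS (28 of 609). At matched depth the IL15 superagonist interval of 3.97% to 8.23% overlapped the PBS interval of 3.08% to 6.58%, so no difference between these libraries was detectable at this depth. The condition of no lymphoid UMI took out 31 of 42 dividing C1q-high barcodes in fusion, 15 of 50 in combination, 15 of 76 in IL15 superagonist, 41 of 113 in anti-PD1 and 14 of 69 in PBS. With them kept the shares were 10.9% in fusion, 5.90% in combination, 10.1% in IL15 superagonist, 7.30% in anti-PD1 and 6.20% in PBS, so that fusion then stood above IL15 superagonist.

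As a share of all barcodes, cycling macrophages were 0.127% in fusion (0.0634% to 0.227%), 0.412% in combination (0.287% to 0.573%), 0.912% in IL15 superagonist (0.698% to 1.17%), 0.987% in anti-PD1 (0.773% to 1.24%) and 0.925% in PBS (0.698% to 1.20%). The fusion and combination intervals lie below the other intervals, and the fusion interval lies below that of combination. The gap between fusion and combination was kept neither among thinned barcodes nor with lymphoid barcodes counted. Among thinned barcodes, with the lymphoid condition unchanged, the shares were 0.0931% in fusion (0.0342% to 0.202%) and 0.309% in combination (0.165% to 0.529%), which overlap. Both intervals still lay below the thinned intervals of the other libraries. With lymphoid barcodes kept, the shares were 0.485% in fusion (0.350% to 0.655%) and 0.589% in combination (0.437% to 0.775%), which also overlap. They were then 1.14% in IL15 superagonist, 1.55% in anti-PD1 and 1.16% in PBS. C1q-high macrophages as a whole followed a like order, at 2.93%, 8.11%, 9.35%, 18.3% and 17.0% of barcodes in fusion, combination, IL15 superagonist, anti-PD1 and PBS. A share of sorted CD45+ cells also moves with every other cell type, and these libraries carry no cell numbers per tumor.

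**Figure D1:**
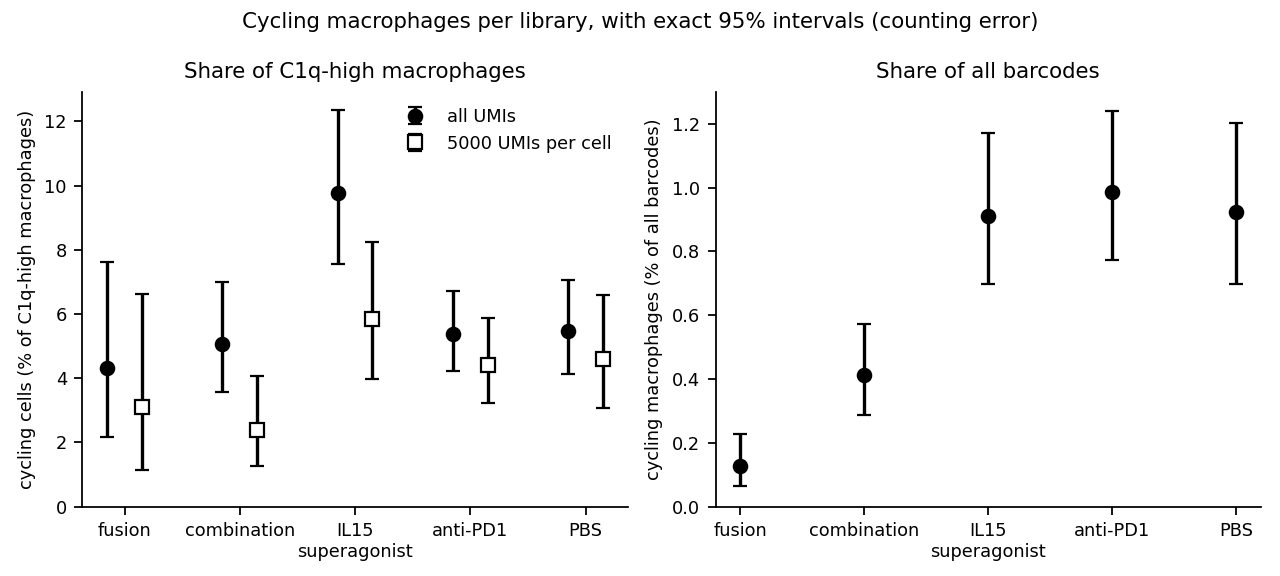
Share of C1q-high macrophages that were cycling (left) and share of all barcodes that were cycling macrophages (right), in percent, per library; filled points use all UMIs, open squares on the left use cells thinned to 5000 UMIs, and bars are exact 95% intervals of counting error. The IL15 superagonist library is highest on the left at 9.76% of cells before thinning, and fusion is lowest on the right at 0.127%.

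Values at the edge of the gate were graded. In CPM, a gene's UMIs scaled to the total UMIs of its library and class, the summed transcripts of the S phase list were 444 in cells with no Mki67 or Top2a UMI, 748 in cells with 1, 1766 in the 77 cells with exactly 2 and 2213 in the 157 cells with 3 or more. The summed transcripts of the G2 and mitosis list were 239, 514, 1017 and 3497 CPM over the same steps. Cells with exactly 1 UMI thus lay between the noncycling cells and the members just inside the gate. On the C1q side only 2 dividing barcodes held 8 or 9 C1q UMIs and only 2 held 10 or 11. Of the 234 cells, 154 carried both Mki67 and Top2a.

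The label held against the markers. C1qa, which the gate used, averaged 3279.9 CPM in cycling and 2090.4 CPM in noncycling macrophages. Cd68, a lysosomal macrophage glycoprotein that the gate did not use, averaged 844 ± 121 CPM in cycling and 851 ± 45.1 CPM in noncycling macrophages (SD, n = 5 libraries), and 93.5% of 216 thinned cycling cells held a Cd68 UMI. Csf1r, the receptor for the growth factor CSF1, and Adgre1 (F4/80) were found in 72.2% and 63.4% of thinned cycling cells. T-cell transcripts other than the gate genes summed to 36.2 ± 28.6 CPM in cycling and 26.8 ± 7.94 CPM in noncycling macrophages, against 4459 CPM in cycling CD8 T cells. At least 3 such UMIs were held by 8 of 234 cycling and 39 of 3382 noncycling cells, a larger share in the cycling class. Melanoma-cell transcripts summed to 93.8 ± 62.1 CPM in cycling and 64.6 ± 11.2 CPM in noncycling macrophages. At least 3 were held by 19 of 234 cycling and 94 of 3382 noncycling cells, again a larger share in the cycling class. In the combination library 1 cell held 89 of the 106 melanoma UMIs. Dendritic-cell transcripts summed to 125 ± 75.7 CPM in cycling and 109 ± 40.6 CPM in noncycling macrophages, with 37 of 234 cycling and 212 of 3382 noncycling cells holding 3 or more. B-cell transcripts summed to 40.6 ± 21.2 CPM in cycling and 35.0 ± 10.1 CPM in noncycling macrophages, with 20 and 80 such cells in the same order. NK and cytotoxic transcripts summed to 231 ± 120 CPM in cycling and 374 ± 127 CPM in noncycling macrophages, with 34 such cycling and 659 such noncycling cells. Neutrophil transcripts summed to 104 ± 142 CPM in cycling and 128 ± 52.4 CPM in noncycling macrophages, with 11 and 88 such cells. Hemoglobin transcripts were at 0 in cycling macrophages. No doublet caller was run, and the part of cell pairs in these values was not tested.

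The cells spanned S phase to mitosis in every library. S phase transcripts were found with G2 and mitosis transcripts in 229 of the 234 cells. Among noncycling macrophages 87.5% held an S phase UMI and 68.4% a G2 and mitosis UMI, so holding both says little by itself. G2 and mitosis UMIs outnumbered S phase UMIs in 126 cells, which were 7 of 11 in fusion, 17 of 35 in combination, 28 of 61 in IL15 superagonist, 41 of 72 in anti-PD1 and 33 of 55 in PBS. In 22 cells the 2 sums differed by at most 2 UMIs. Summed over a library, the ratio of G2 and mitosis UMIs to S phase UMIs was 1.61 in fusion, 1.021 in combination, 1.09 in IL15 superagonist, 1.51 in anti-PD1 and 1.73 in PBS. The median cell held 13.5 S phase UMIs per 10000 in fusion, 9.29 in combination, 24.0 in IL15 superagonist, 10.5 in anti-PD1 and 10.9 in PBS. The 24.0 of the IL15 superagonist library stands apart from the other values, while the median G2 and mitosis level was 23.9, 18.03, 23.0, 27.4 and 25.5 per 10000 in the same order of libraries. Free RNA can add to such scores in single cells, and its part was not tested.

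**Figure D2:**
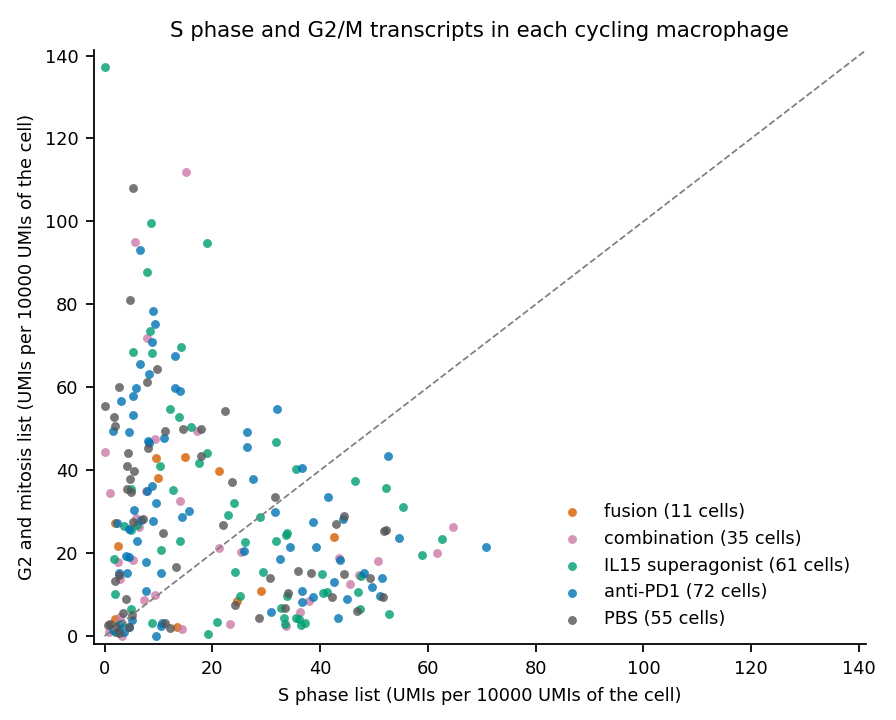
S phase transcripts (horizontal) against G2 and mitosis transcripts (vertical) of each cycling macrophage, in UMIs per 10000, by library. The dashed line marks equal levels. Cells spread from mostly S phase to mostly mitotic in every library, and 126 of 234 hold more G2 and mitosis than S phase UMIs.

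Cycling macrophages were compared with noncycling macrophages of the same library, over the 5 libraries and 7600 tested genes. The block for library removes differences between treatments that are alike in both classes. The p-values set the mean difference between classes against its variation over these 5 libraries. A class difference that changes with treatment stays in that variation. Cycling cells were higher in 1055 genes (13.9%) and lower in 1131 genes (14.9%), at an adjusted p under 0.05. The median log2 fold change over all tested genes was -0.0017. Monocyte genes, type I interferon response genes, MHC class II genes, glycolysis enzymes and inflammatory cytokines were lower in cycling macrophages, while part of the resident macrophage genes were higher. Cell-cycle genes were higher, as a gate on Mki67 and Top2a makes likely, and they are given as a description. Values of the 5 libraries are in the order fusion, combination, IL15 superagonist, anti-PD1 and PBS in what follows, in CPM, and fold changes are on the log2 scale.

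Mki67 itself stood at 181, 171, 222, 248 and 262 CPM in cycling macrophages and Top2a at 266, 154, 213, 250.2 and 219 CPM, both at 0 in noncycling macrophages by the gate. All 29 tested genes of the 35 on the S phase list were higher, with a median log2 fold change of 2.37, and so were 34 of 35 tested of the 40 on the G2 and mitosis list, with a median of 4.74. The exception was Pttg1 (securin) at -0.11 (adjusted p = 0.63). Of the 15 listed replication-dependent histone genes 6 were tested and 5 were higher. Rrm2, the small subunit of the enzyme that makes deoxynucleotides, had 66.6, 85.5, 100.3, 66.9 and 57.5 CPM in cycling cells, against 1.25, 1.17, 4.54, 1.14 and 1.89 CPM in noncycling cells. Mcm5, part of the replicative helicase, had 19.0, 94.97, 115, 64.9 and 69.0 CPM in cycling cells, against 8.72, 12.5, 11.6, 12.96 and 10.3 CPM in noncycling cells. The fusion library's Mcm5 is the lowest of the cycling values and in CPM above all noncycling ones. Its cycling cells summed to 105139 UMIs, so the fusion values of Mcm5, Cdc20 and Kif11 rest on a few UMIs each. Their order against noncycling values is therefore uncertain. Cdc20, which activates the ligase that starts anaphase, had 28.5, 34.2, 30.9, 54.6 and 56.1 CPM in cycling cells, against 0, 0.584, 1.36, 0.830 and 1.20 CPM in noncycling cells. Kif11, the motor that pushes spindle poles apart, had 28.5, 26.6, 51.2, 59.7 and 53.2 CPM in cycling cells, against 1.87, 0.584, 1.82, 0.830 and 0.688 CPM in noncycling cells. In CPM, with counting error left aside, these groups do not overlap for any of the 4 genes.

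The promoters of 4 cell-cycle genes are printed below, chosen by motif and fold change. Promoters are from RefSeq on GRCm38.p6, and the search covered the 250 bases before each start on both strands. The CCAAT box (CCAAT, bound by NF-Y) was in 77.8% of the 36 promoters matched to the G2 and mitosis list, against 33.8% of all 32851 promoters. The CHR (TTTGAA or TTCGAA, bound by the DREAM and B-MYB complexes) was in 36.1% of them, against 17.1% of all, and both motifs were in 33.3%, against 6.02% of all. An E2F motif (TTTCGCGC or TTTGGCGC) was in 11.8% of the 34 promoters of the S phase list, against 0.654% of all. The CHR was in 14.7% and the CCAAT box in 55.9% of these 34. The motifs are not particular to the cell-cycle lists: of the 13 promoters matched to the monocyte list, whose genes fell, 46.2% held a CCAAT box, 38.5% a CHR and 23.1% both. The last 150 bases before the start follow, a match being a description of letters and not a measured site. Cdc20 and Kif11 rose most among G2 and mitosis members with both a CCAAT box and a CHR in these 150 bases. Mcm5 and Pola1 rose most among S phase members with an E2F motif there. Genes of 1 chromosome were left out of this choice, and other members of both lists rose further. Cdc20 lies at chr4:118437344-118437493 on the minus strand, Kif11 at chr19:37376232-37376381 on the plus strand, Mcm5 at chr8:75109359-75109508 on the plus strand and Pola1, the catalytic subunit of DNA polymerase alpha, at chrX:93632156-93632305 on the minus strand. Capitals mark CCAAT boxes and the CHR in Cdc20 and Kif11, and the E2F motif in Mcm5 and Pola1. The CCAAT boxes of Mcm5 and Pola1 are left in lower case.
Cdc20: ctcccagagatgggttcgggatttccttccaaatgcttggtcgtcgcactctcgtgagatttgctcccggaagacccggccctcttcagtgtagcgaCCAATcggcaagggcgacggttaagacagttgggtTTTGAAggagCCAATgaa
Kif11: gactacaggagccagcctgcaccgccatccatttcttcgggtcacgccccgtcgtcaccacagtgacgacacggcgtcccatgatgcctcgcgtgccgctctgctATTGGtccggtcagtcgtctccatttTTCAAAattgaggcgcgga
Mcm5: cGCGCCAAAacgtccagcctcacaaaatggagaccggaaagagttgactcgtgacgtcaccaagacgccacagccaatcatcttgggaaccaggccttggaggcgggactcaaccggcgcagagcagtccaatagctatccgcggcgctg
Pola1: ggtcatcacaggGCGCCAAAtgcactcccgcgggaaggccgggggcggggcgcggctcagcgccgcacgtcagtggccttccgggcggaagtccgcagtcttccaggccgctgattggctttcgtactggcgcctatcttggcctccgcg

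The genes that rose most outside the cell-cycle lists were Prr11, Pbk, Spag5, Fam64a, Aspm, Ska1, Kif15, Casc5, Nuf2, Melk, Kif4 and Ncapg. Among them Nuf2 and Ska1 are kinetochore proteins, Kif4 and Kif15 mitotic motors, and Ncapg a condensin subunit. Prr11 averaged 27.0 ± 12.6 CPM in cycling and 0.290 ± 0.541 CPM in noncycling macrophages (SD, n = 5 libraries). The 5 abundant genes that follow were picked after their values were seen. Hmgb2, a chromatin protein of dividing cells, averaged 735 ± 164 CPM in cycling and 143 ± 10.2 CPM in noncycling macrophages, a log2 fold change of 2.25. The others were H2afz at 1.19, Tubb5 at 1.62, Tuba1b at 1.46 and Ranbp1 at 1.01 on the log2 scale.

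Upstream of S phase the picture was mixed. Of 15 tested genes among 16 G1 cyclins, kinases and E2F regulators, 7 rose and none fell, with a median of 0.58. In thinned cells 1 of 8 tested was higher, with a median of -0.25, and among cells with at least 10000 UMIs 4 of 11 were higher and 1 lower, with a median of 0.19. Cdk4, the kinase that D cyclins activate, had 143, 186, 226, 210.04 and 183 CPM in cycling cells, against 118, 109, 120.5, 105 and 99.0 CPM in noncycling cells. It rose by a log2 fold change of 0.74 (SE 0.11, adjusted p = 3.3e-05), with no overlap between the groups. Ccnd1 (cyclin D1) had 171, 72.2, 93.9, 156 and 134 CPM in cycling cells, against 33.0, 52.7, 70.3, 106 and 79.4 CPM in noncycling cells. Ccnd1 was higher in 5 of 5 libraries, with a log2 fold change of 0.58 (SE 0.16, adjusted p = 0.010), but the call was lost in thinned cells (log2 fold change 0.63, adjusted p = 0.0689), among cells with at least 10000 UMIs (0.29, adjusted p = 0.325), without the PBS library (0.55, adjusted p = 0.0547) and without the library block (0.67, adjusted p = 0.0802). Ccnd2 at -0.31, Ccnd3 at -0.13, Cdk6 at 0.16 and Myc at -0.42 did not pass (adjusted p = 0.10, 0.58, 0.50 and 0.17).

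Cell-cycle inhibitors and genes of cell-cycle exit mostly fell. Of 18 tested among 23 listed, 12 fell and 2 rose, the list median being -0.72, and in thinned cells 8 of 15 were lower. Cdkn1a (p21), which blocks cyclin-dependent kinases, had 352, 441, 334, 481 and 516 CPM in cycling cells, against 638, 959, 749, 1006 and 868 CPM in noncycling cells. It fell by 1.11 on the log2 scale (SE 0.08, adjusted p = 1.5e-08), and the highest cycling value lies below the lowest noncycling one. Btg1, an antiproliferative gene, had 589.7, 503, 352, 445 and 462 CPM in cycling cells, against 946, 1052, 949.9, 1065 and 932 CPM in noncycling cells, and fell by 1.23. Maf, a macrophage transcription factor, at -0.34 passed with an adjusted p of 0.034 and lost the call in 8 of the alternatives. Cdkn2c (p18), an inhibitor of Cdk4 and Cdk6, went the other way, with 28.5, 30.4, 53.4, 40.2 and 34.5 CPM in cycling cells, against 4.36, 4.09, 2.95, 4.46 and 3.78 CPM in noncycling cells. Cdkn2c rose by 3.21 (SE 0.22, adjusted p = 5.9e-09), and the related Cdkn2d rose by 1.20.

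**Figure D3:**
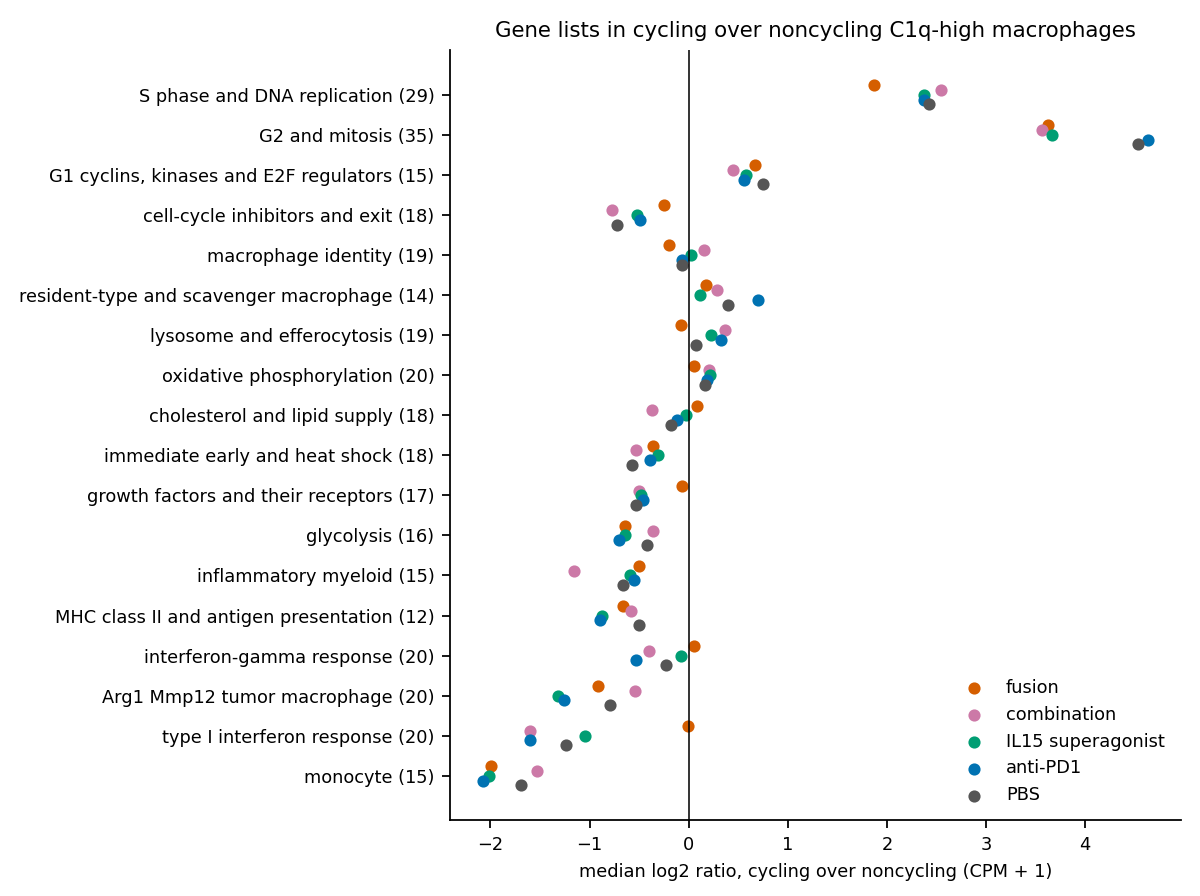
Median log2 ratio of CPM + 1, cycling over noncycling macrophages, over the tested members of each gene list (number in brackets), with 1 point per library. The S phase and the G2 and mitosis lists lie right of 0 and the monocyte list left of 0 in all 5 libraries, while the type I interferon list is at -0.01 in fusion and between -1.60 and -1.04 in the other libraries.

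Monocyte genes fell furthest. Of 15 listed and tested genes 14 fell and none rose, the list median being -1.97, and 13 of 14 were lower in thinned cells. Ly6c2, the surface marker of inflammatory monocytes, had 57.1, 57.0, 5.34, 51.5 and 46.0 CPM in cycling cells, against 318, 363, 159, 567 and 427 CPM in noncycling cells. This was a 10.5-fold drop (log2 fold change -3.39, SE 0.17, adjusted p = 1.3e-10) with no overlap. Among thinned cells 9.26% of cycling and 45.7% of noncycling macrophages held a Ly6c2 UMI. Ccr2, the chemokine receptor that brings monocytes out of bone marrow, had 66.6, 158, 101, 101 and 102 CPM in cycling cells, against 235, 359.8, 278, 349.9 and 332 CPM in noncycling cells, a log2 fold change of -1.65 (SE 0.11, adjusted p = 3.9e-09). Ccr2 was found in 23.6% of thinned cycling and 61.6% of thinned noncycling cells. Chil3 (Ym1), a chitinase-like monocyte product, averaged 13.3 ± 6.17 CPM in cycling and 141 ± 66.5 CPM in noncycling macrophages, and Plac8 averaged 229 ± 117 CPM in cycling and 906 ± 339 CPM in noncycling macrophages (SD, n = 5). The largest falls outside the cell-cycle lists were Chil3, Ly6c2, Sdc1, Hp, Cxcl3, Egln3, Rsad2, Inhba, Thbs1, Ly6i, Nrg1 and Plac8. Thbs1, a matrix glycoprotein, had 199.7, 112, 203, 289 and 301 CPM in cycling cells, against 448, 1123, 1009, 1174 and 1736 CPM in noncycling cells.

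Macrophage identity genes went both ways. Of 19 tested among 20, 5 rose and 9 fell, the list median being -0.10. In thinned cells 5 were higher and 5 lower, and without the library block 2 were higher and 5 lower. Trem2, a lipid-sensing receptor of macrophages, had 438, 511, 574, 445 and 538 CPM in cycling cells, against 251, 231, 331, 213 and 448 CPM in noncycling cells, and rose by 0.71 (SE 0.11, adjusted p = 7.0e-05). Cd81, a tetraspanin, averaged 173 ± 51.1 CPM in cycling and 71.7 ± 17.0 CPM in noncycling macrophages (log2 fold change 1.28). Csf1r had 266, 260.2, 296, 313 and 286 CPM in cycling cells, against 339, 368, 374, 348 and 349.99 CPM in noncycling cells. Csf1r fell by 0.42 (SE 0.08, adjusted p = 0.00099), a call not kept in thinned cells (adjusted p = 0.139) or at 10000 UMIs and above (0.0844). Fcgr1, the high-affinity IgG receptor, fell by 1.06 and Cd14, the lipopolysaccharide co-receptor, by 1.10. Cx3cr1, the fractalkine receptor, had 28.5, 41.8, 26.7, 99.9 and 76.2 CPM in cycling cells, against 4.98, 30.4, 37.7, 28.0 and 40.4 CPM in noncycling cells. The groups overlap, and the IL15 superagonist library was lower in cycling cells. Its log2 fold change of 0.78 (SE 0.25, adjusted p = 0.024) fell short of a call without anti-PD1 (0.32, adjusted p = 0.390), without PBS (0.77, adjusted p = 0.0900), without the library block (0.91, adjusted p = 0.101) and by DESeq2 (0.75, adjusted p = 0.0893).

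Resident-type and scavenger genes rose in part. Of 14 tested among 20, 5 rose and 4 fell, the list median being 0.19. The number lower was 2 in thinned cells and 1 among cells with at least 10000 UMIs, and without the library block 3 were higher and 1 lower. Fcrls, an Fc receptor-like gene of microglia and tissue macrophages, had 19.0, 15.2, 55.5, 64.9 and 124 CPM in cycling cells, against 1.87, 5.84, 22.0, 9.33 and 29.6 CPM in noncycling cells. It was higher in 5 of 5 libraries, by 1.93 on the log2 scale (SE 0.20, adjusted p = 9.2e-07), though the groups overlap across libraries. Igf1, a growth factor of tissue macrophages, averaged 164 ± 80.2 CPM in cycling and 74.4 ± 46.2 CPM in noncycling macrophages, a log2 fold change of 1.17. Ccl8 rose by 0.84, Gas6, the bridge between dying cells and their receptors, by 0.91 and Stab1, a scavenger receptor, by 0.81. Without the library block Ccl8 (0.67, adjusted p = 0.192) and Gas6 (1.02, adjusted p = 0.111) lost their calls. Mrc1 (the mannose receptor CD206) at 0.22, Pf4 at 0.06 and Folr2 (folate receptor beta) at 0.25 did not pass (adjusted p = 0.16, 0.72 and 0.25). Yet among thinned cells 67.6% of cycling and 34.8% of noncycling macrophages held a Pf4 UMI, and 61.1% of cycling and 42.6% of noncycling macrophages a Mrc1 UMI. Vcam1, an adhesion molecule picked after its values were seen, had 361, 232, 479, 245 and 299 CPM in cycling cells, against 108, 124, 184, 68.7 and 113 CPM in noncycling cells, with no overlap.

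**Figure D4:**
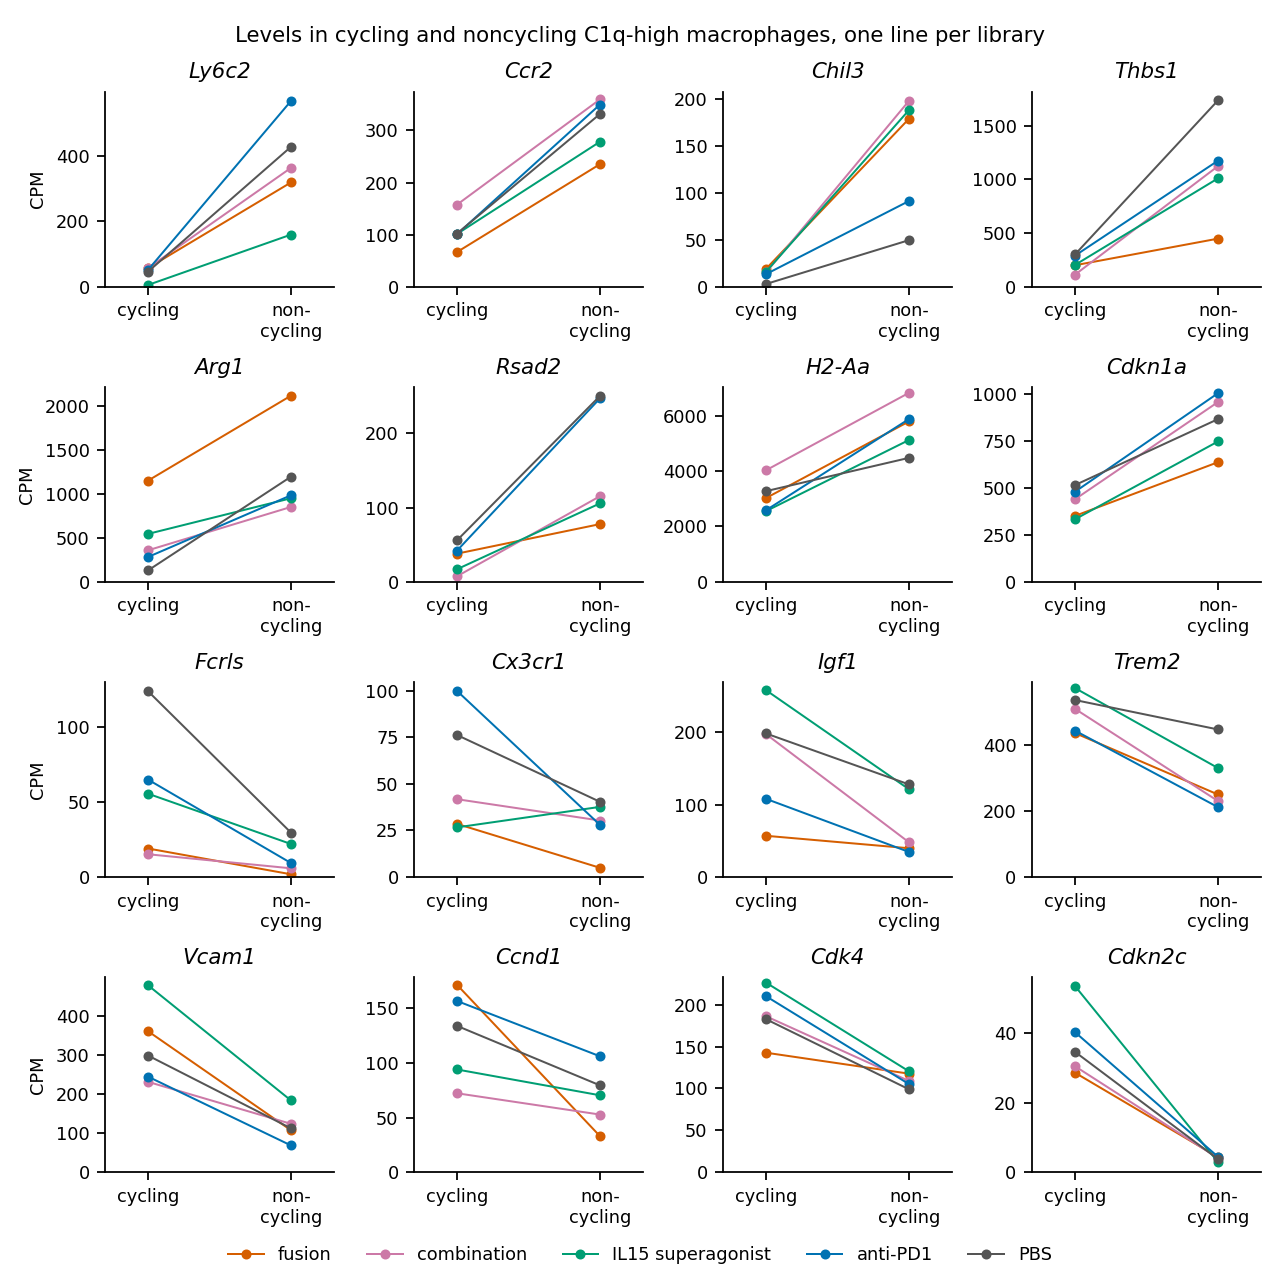
CPM of 16 genes in cycling (left) and noncycling (right) macrophages, with 1 line per library. Ly6c2, Ccr2, Chil3 and Cdkn1a are lower, and Cdk4, Cdkn2c, Trem2 and Vcam1 higher, in cycling cells of all 5 libraries.

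Type I interferon response genes fell as a group. All 20 tested of 22 listed were lower, with a median of -1.51, but in thinned cells 10 of 18 passed, and the median within the fusion library alone was -0.01. Rsad2 (viperin), an antiviral enzyme, had 38.0, 7.598, 17.1, 42.2 and 56.1 CPM in cycling cells, against 77.8, 115, 106, 247 and 250.5 CPM in noncycling cells, and fell by 2.60 (SE 0.18, adjusted p = 3.7e-09). Isg15, a ubiquitin-like interferon product, had 352, 232, 142, 215 and 155 CPM in cycling cells, against 687, 641, 428, 1095 and 761 CPM in noncycling cells, and fell by 1.93. Isg15 was found in 36.6% of thinned cycling and 66.7% of thinned noncycling cells. Irf7, the factor that amplifies the response, fell by 1.62 and Ifit3 by 2.11. Ifit3 in fusion was 19.0 CPM in cycling and 13.1 CPM in noncycling cells, the opposite order to the other libraries. The cycling value comes from a few of 105139 UMIs, so this order is uncertain. The interferon-stimulated response element (GAAA, any 2 bases, GAAA) was in 35.0% of the 20 promoters matched to this list, against 2.98% of all promoters. The promoters of Rsad2 (chr12:26456453-26456602, minus strand) and Ifit3 (chr19:34583379-34583528, plus strand) are shown as the members with the largest fall that hold it, with the element in capitals.
Rsad2: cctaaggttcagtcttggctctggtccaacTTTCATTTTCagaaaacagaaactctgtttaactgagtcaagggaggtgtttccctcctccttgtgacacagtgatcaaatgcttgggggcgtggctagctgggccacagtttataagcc
Ifit3: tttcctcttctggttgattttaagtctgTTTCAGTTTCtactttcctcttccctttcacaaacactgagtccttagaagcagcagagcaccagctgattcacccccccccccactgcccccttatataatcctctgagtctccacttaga

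The interferon-gamma list was split. Of 20 tested among 21 listed genes, 11 fell and none rose, the list median being -0.40. That count depended on the processing: 5 of 19 were lower in thinned cells, 7 without the anti-PD1 library (median -0.24), 7 without barcodes holding T-cell or melanoma transcripts, 4 without the library block, and 4 lower with 1 higher among cells with at least 10000 UMIs (median -0.13). Nos2 (inducible nitric oxide synthase) fell by 2.05 and Cd274 (PD-L1) by 1.04, averaging 89.8 ± 28.9 CPM in cycling and 160 ± 55.4 CPM in noncycling macrophages. The chemokines Cxcl9 at 0.02 and Cxcl10 at -0.19 did not pass (adjusted p = 0.95 and 0.18), nor did the immunoproteasome subunits Psmb8 at -0.12 and Psmb9 at 0.01.

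Antigen presentation fell. Of 12 tested among 13 listed MHC class II and antigen presentation genes 11 were lower, with a median of -0.87, and 7 of 11 in thinned cells. H2-Aa, a class II chain, had 3025, 4027, 2554, 2585 and 3273 CPM in cycling cells, against 5786, 6818, 5117, 5872 and 4473 CPM in noncycling cells. It fell by 0.97 (SE 0.09, adjusted p = 2.4e-07), with no overlap. Cd74, the class II chaperone, averaged 9308 CPM in cycling and 16188 CPM in noncycling macrophages, and the costimulatory ligands Cd80 and Cd86 fell by 1.77 and 0.97. Cd80 lost its call in thinned cells (-1.09, adjusted p = 0.173).

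Inflammatory, growth factor receptor and metabolic genes were mostly lower. Of 15 tested inflammatory genes 13 were lower, with a median of -0.73, and 8 without the library block. Il1b had 904, 1168, 451, 1640.1 and 877 CPM in cycling cells, against 2507, 3556, 2682, 3704 and 2384 CPM in noncycling cells, and fell by 1.76 (SE 0.13, adjusted p = 1.7e-08). Of 17 tested growth factor and receptor genes 13 were lower and 1 higher, and 8 of 16 were lower in thinned cells. The higher one was Tgfbr2 at 0.42, which lost its call in 10 of the alternatives. Csf2rb, the shared receptor chain for GM-CSF, fell by 0.88. Il2rg, the common gamma chain through which IL15 signals, averaged 99.3 ± 15.2 CPM in cycling and 155 ± 36.3 CPM in noncycling macrophages. Il15ra averaged 6.58 CPM in cycling and 8.95 CPM in noncycling macrophages and did not pass (log2 fold change -0.58, adjusted p = 0.24). All 16 glycolysis genes were lower, with a median of -0.64, and 12 of them without the library block. Pgk1, a glycolytic kinase, had 143, 228, 201, 246 and 233 CPM in cycling cells, against 256, 337, 315, 348 and 314 CPM in noncycling cells. Of 20 oxidative phosphorylation genes 2 were higher and none lower, with a median of 0.08. Of 18 immediate early and heat shock genes, known to react to tissue digestion, 13 were lower with a median of -0.52, and 8 of 17 in thinned cells.

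Genes of Arg1 and Mmp12 tumor macrophages were lower in 17 of 20 cases and higher in none, with a median of -1.11. Arg1, which breaks down arginine, had 1151, 359, 545, 283 and 131 CPM in cycling cells, against 2115, 851, 950.1, 984 and 1195 CPM in noncycling cells, and fell by 1.64 (SE 0.22, adjusted p = 1.6e-05). Every library was lower in cycling cells, and the fusion library was highest in both classes. Hilpda and Vegfa, both known hypoxia-induced genes, fell by 1.29 and 1.65, while Spp1 (osteopontin) at -0.43 lost its call in 3 alternatives. The lists of lysosome and efferocytosis genes (7 of 19 higher, 4 lower, median 0.08) and of cholesterol and lipid supply (1 of 18 higher, 4 lower, median -0.23) showed no common direction. In thinned cells these counts were 4 and 2 of 19 for the lysosome list and 0 and 0 of 11 for the cholesterol list, and without the library block 2 and 2, and 1 and 0.

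Cycling macrophages were next set against cycling CD8 T cells of the same libraries, chosen with the same Mki67 and Top2a condition. There were 3401, 383, 186, 321 and 268 of these T cells in fusion, combination, IL15 superagonist, anti-PD1 and PBS, with medians of 12118, 14708, 13537.5, 11537 and 10219 UMIs. Macrophages held more transcripts of cyclin D1 and p21, and CD8 T cells more of cyclin D2, Cdk6 and the p16 and Arf locus. S phase and histone genes were lower in macrophages. Of 8897 genes tested 27.3% were higher and 27.4% lower in macrophages, with a median log2 fold change of -0.08, so counts of list members are read against a wide background. Of 122 tested cell-cycle genes 15 were higher and 57 lower. The shared condition did not match the 2 classes: Mki67 and Top2a together averaged 437 CPM in macrophages and 793 CPM in CD8 T cells. At least 3 such UMIs were held by 157 of 234 macrophages and 3950 of 4559 CD8 T cells. The part of this in the other cell-cycle values was not tested.

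Ccnd1 had 171, 72.2, 93.9, 156 and 134 CPM in cycling macrophages, against 0.638, 3.34, 7.12, 5.84 and 3.42 CPM in cycling CD8 T cells, a log2 fold change of 5.10 (SE 0.39, adjusted p = 5.4e-08). Ccnd2 had 47.6, 45.6, 29.9, 72.1 and 53.2 CPM in macrophages, against 85.2, 120.1, 90.4, 151 and 205 CPM in CD8 T cells, a log2 fold change of -1.36 (SE 0.16). Neither gene overlapped between the cell types. Ccnd3 averaged 51.3 CPM in macrophages and 113 CPM in CD8 T cells (log2 fold change -0.83, SE 0.21, adjusted p = 0.0036). Their kinase Cdk6 averaged 54.1 ± 12.3 CPM in macrophages and 141 ± 53.4 CPM in CD8 T cells, whereas Cdk4 at 189.5 and 218 CPM did not pass (log2 fold change -0.07, adjusted p = 0.69). Rbl2 (p130), a retinoblastoma-family repressor, averaged 11.4 ± 3.54 CPM in macrophages and 104 ± 48.0 CPM in CD8 T cells.

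Of 20 tested inhibitor and exit genes 10 were higher and 5 lower in macrophages. Cdkn1a had 352, 441, 334, 481 and 516 CPM in macrophages, against 222, 151, 138, 177 and 135 CPM in CD8 T cells, a log2 fold change of 1.49 (SE 0.17, adjusted p = 3.0e-06). Thus Cdkn1a in cycling macrophages lay below noncycling macrophages and above cycling CD8 T cells in each library. Cdkn2a, the locus of p16 and Arf, had 9.51, 5.70, 2.13, 0 and 1.44 CPM in macrophages, against 66.5, 42.8, 54.4, 40.7 and 86.8 CPM in CD8 T cells. The transcription factors Klf4 and Maf were also higher in macrophages, by 3.51 and 3.03 on the log2 scale.

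Of 35 S phase genes 22 were lower and none higher in macrophages (median -0.69), of 13 histone genes 11 were lower and 1 higher (median -1.32), and of 39 G2 and mitosis genes 14 were lower and 2 higher (median -0.33). Dut, which clears dUTP before DNA synthesis, averaged 117 ± 24.0 CPM in macrophages and 726 ± 76.4 CPM in CD8 T cells (log2 fold change -2.54, SE 0.15). Rrm2 averaged 75.4 ± 17.3 CPM in macrophages and 204 ± 85.1 CPM in CD8 T cells, while Pcna, the replication clamp, did not pass at -0.04 (adjusted p = 0.84). Cenpa, the centromeric histone, averaged 210.4 ± 48.1 CPM in macrophages and 515 ± 43.1 CPM in CD8 T cells. Anln (anillin), which builds the cleavage furrow, was one of the 2 mitotic genes higher in macrophages, at 38.0 ± 12.5 CPM in macrophages and 12.9 ± 2.97 CPM in CD8 T cells (log2 fold change 1.52, SE 0.21, adjusted p = 2.3e-05). The other was Aurka at 0.77, which lost its call without the IL15 superagonist library (adjusted p = 0.0537).

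**Figure D5:**
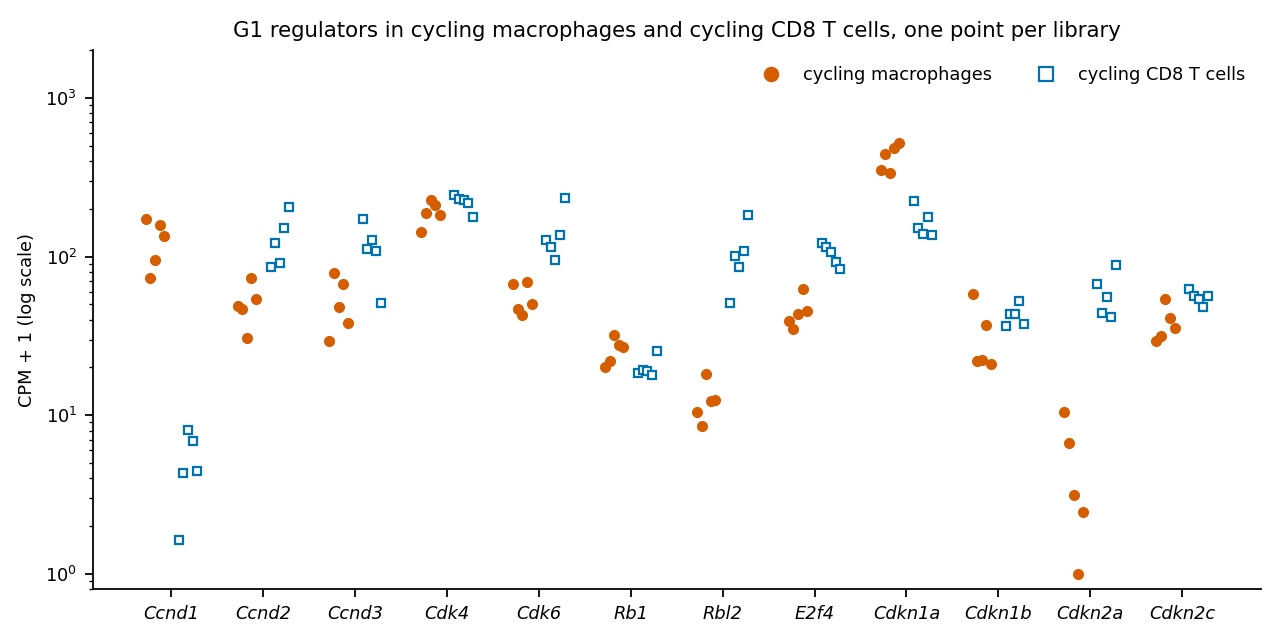
CPM + 1 of G1 regulators and inhibitors on a log axis, in cycling macrophages (filled circles) and cycling CD8 T cells (open squares), with 1 point per library. Ccnd1 and Cdkn1a are higher and Ccnd2 and Cdkn2a lower in macrophages, with no overlap between cell types.

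Between treatments, cycling macrophages can only be set side by side as single libraries. A gene is called here when its ratio of CPM is at least 1.5-fold and the exact 95% interval of counting error excludes 1, among genes with at least 20 UMIs over both libraries. Arg1, Cxcl1 and Ccl6 were higher and Apoe and Gpnmb lower in fusion than in PBS, Cxcl1 was higher under every treatment than in the shared PBS library, and 15 of 35 S phase genes were higher under IL15 superagonist. In 25 of the 80 gene ratios named here, 1 cell held at least 50% of the gene's UMIs in the library where it was higher. Median log2 ratios over all genes lay between -0.06 and 0.06 in the 5 comparisons.

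Fusion against PBS called 4.5% of 4755 genes higher and 4.14% lower, from 11 and 55 cells. Ccl6, a macrophage chemokine, had 4965 CPM in fusion and 975 CPM in PBS, a ratio of 5.09 (4.53 to 5.72), found in 11 of 11 and 49 of 55 cells. In noncycling macrophages Ccl6 had 5308 CPM in fusion and 2325 CPM in PBS. Arg1 had 1151 CPM in fusion and 131 CPM in PBS, a ratio of 8.79 (6.64 to 11.7), from 6 and 17 cells, with 47.1% of the fusion UMIs in 1 cell. Cxcl1, a neutrophil-attracting chemokine, had 333 CPM in fusion and 23.0 CPM in PBS, a ratio of 14.5 (7.80 to 28.0), with 54.3% of the fusion UMIs in 1 cell. Apoe, the lipid carrier, had 942 CPM in fusion and 5712 CPM in PBS, 6.07-fold lower (4.97 to 7.48), and Gpnmb, a glycoprotein of lipid-laden macrophages, had 47.6 CPM in fusion and 525 CPM in PBS. Both were also lower in noncycling macrophages of the fusion library, by 4.24-fold and 2.68-fold. Retnla had 191 UMIs in fusion and 0 in PBS, at least 421-fold higher against a floor of 3 counts in the library, but 91.1% of them came from 1 cell. Selm, Marcksl1, Egr1 and Cfp completed the 8 named higher genes, with 51.9% of Selm and 62.5% of Marcksl1 UMIs in 1 fusion cell, and Ms4a7, Hspa1a, Hspa1b, Emp1, Pmp22 and S100a9 the lower ones, S100a9 because 1 PBS cell held 99.3% of its 140 UMIs.

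Combination against PBS called 4% of 5943 genes higher and 6.76% lower. G2 and mitosis genes were lower in 13 of 36 compared and higher in none, with a median log2 ratio of -0.69, against 0.06 in noncycling macrophages of the same libraries. Monocyte genes were higher in 6 of 10 (median 0.66), and resident-type genes lower in 6 of 14 (median -0.57). Both shifts were also present in noncycling macrophages, with medians of 0.31 and -0.48, beside -0.13 over all genes. Ccl6 had 3470 CPM in combination and 975 CPM in PBS, a ratio of 3.56 (3.26 to 3.89). Cxcl1 had 353 CPM in combination and 23.0 CPM in PBS, a ratio of 15.4 (9.21 to 27.4), with 53.2% of the combination UMIs in 1 cell. Atp6v0d2, a proton pump subunit of macrophages and osteoclasts, had 156 CPM in combination and 21.6 CPM in PBS, from 11 and 9 cells, and 41.4 and 45.6 CPM in noncycling cells of combination and PBS. Fcrls had 15.2 CPM in combination and 124 CPM in PBS, 8.14-fold lower. Ccl24, Mgl2, Tppp3, Qpct and Rgcc were the other higher genes, Ccl24 with 93.4% and Mgl2 with 63.1% of their UMIs in 1 cell. Ifitm1, Hspa1a, Hspa1b, Mmp13, Fem1c, S100a8 and S100a9 were the other lower ones, and 1 PBS cell held 66.7% of the Ifitm1, 69.4% of the Mmp13, 97.9% of the S100a8 and 99.3% of the S100a9 UMIs.

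IL15 superagonist against PBS called 4.26% of 6754 genes higher and 5.45% lower. S phase genes were higher in 15 of 35 compared and lower in none, with a median log2 ratio of 0.56. In noncycling macrophages the S phase median was 0.29, beside -0.05 over all genes. G2 and mitosis genes had a median of -0.15 in cycling macrophages, with 2 of 37 higher and 4 lower. In noncycling macrophages their median was 0.69, with 8 of 20 higher and 0 lower. Arg1 had 545 CPM in IL15 superagonist and 131 CPM in PBS, a ratio of 4.17 (3.33 to 5.27), found in 29 and 17 cells, whereas in noncycling macrophages it had 950.1 CPM in IL15 superagonist and 1195 CPM in PBS. Cxcl1 had a ratio of 7.24 (4.32 to 12.97) and Ccl6 of 2.33 (2.14 to 2.55). Vegfa, the vessel growth factor, had 29.9 CPM in IL15 superagonist and 108 CPM in PBS, 3.61-fold lower (2.31 to 5.79). Retnla (262 and 0 UMIs, 4 cells), Ear2, Areg, Atp6v0d2 and Lyz1 were the other higher genes, Lyz1 with 83.9% and Retnla with 59.5% in 1 cell. S100a9, Hspa1a, Hspa1b, Ifitm1, Mylip, Runx3 and Sema4d were the other lower ones, S100a9 and Ifitm1 with 99.3% and 66.7% of PBS UMIs in 1 cell.

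Anti-PD1 against PBS called 4.33% of 6904 genes higher and 4% lower. Interferon-gamma response genes were higher in 6 of 20 and lower in none, with a median log2 ratio of 0.36. In noncycling macrophages the list median was 0.86, beside -0.09 over all genes. Counts of calls are not set side by side, because the anti-PD1 noncycling sum held 9643646 UMIs against 971268 in cycling macrophages. The difference between the classes was not tested. Cxcl10, which draws activated T cells, had 1116 CPM in anti-PD1 and 512 CPM in PBS, a ratio of 2.18 (1.93 to 2.46). Cebpb, a myeloid transcription factor, had 1150.04 CPM in anti-PD1 and 558 CPM in PBS, a ratio of 2.06 (1.83 to 2.32), found in 70 of 72 and 53 of 55 cells, close to the 2.13 of noncycling macrophages. Glrx (glutaredoxin) had 303 CPM in anti-PD1 and 116 CPM in PBS. Fabp5, a fatty acid binding protein, had 917 CPM in anti-PD1 and 2633 CPM in PBS, 2.87-fold lower (2.65 to 3.11), and Gpnmb had 63.8 CPM in anti-PD1 and 525 CPM in PBS, 8.22-fold lower. Folr2 had 24.7 CPM in anti-PD1 and 102 CPM in PBS. Cxcl1, Cxcl3, Areg, Clec4b1 and Marcksl1 were the other higher genes, Areg with all and Cxcl1 with 51.9% of UMIs in 1 cell. Fabp4, G0s2, Mylip, Apoe and S100a9 were the other lower ones, with all G0s2 UMIs in 1 cell of each library and 99.3% of the PBS UMIs of S100a9 in 1 cell.

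Fusion against combination called 3.97% of 3832 genes higher and 3.26% lower. Arg1 had 1151 CPM in fusion and 359 CPM in combination, a ratio of 3.21 (2.53 to 4.05), beside 2.48 in noncycling macrophages. Atp1b3, a sodium pump subunit, had 989 CPM in fusion and 355 CPM in combination and was found in 11 of 11 fusion cells. Apoe had 942 CPM in fusion and 3138 CPM in combination, 3.33-fold lower, and Cxcl9, an interferon-gamma-induced chemokine, had 333 CPM in fusion and 887 CPM in combination, 2.66-fold lower (1.89 to 3.87). Atp6v0d2 had 0 UMIs in fusion and 82 in combination, at least 5.46-fold lower against a floor of 3 counts. Retnla, Gdf15, Egr1, Hif1a, Cfp and Marcksl1 were the other higher genes, and Gpnmb, Ccl24, Emp1, Mgl2 and Cd63 the other lower ones. Here 1 fusion cell held 91.1% of the Retnla and 62.5% of the Marcksl1 UMIs and as much as the other fusion cells together for Gdf15, and 1 combination cell held 93.4% of the Ccl24 and 63.1% of the Mgl2 UMIs. Of the 8 higher and 8 lower genes in each comparison, the number still called without the cell holding most UMIs was 8 and 7 for fusion against PBS, 8 and 5 for combination, 7 and 7 for IL15 superagonist, 7 and 6 for anti-PD1 and 7 and 7 for fusion against combination.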

How the data were processed

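Each of the 5 libraries was deposited as a matrix of UMI counts per gene and barcode, which the authors made with Cell Ranger 2.1.1 on mm10, per the submitters' processing notes; gene and barcode names stood in files beside it. The sources used here do not say how the deposited barcodes were filtered. UMIs were summed per library and class. Cycling and noncycling macrophages, and cycling macrophages and cycling CD8 T cells (Cd3 sum at least 2, Cd8a and Cd8b1 sum at least 1, C1q sum under 3, Mki67 and Top2a sum at least 2, Ncr1 and Cd79a at 0), were compared with edgeR 4.0.16 (R 4.3.3) by its quasi-likelihood test with TMM factors, filterByExpr, library as a block and Benjamini-Hochberg adjustment over all genes tested. CPM scale summed UMIs to the total UMIs of the library and class. Both classes come from the same library, which is where the pairing comes from. Libraries were compared by ratios with exact conditional 95% intervals and 0.5 added to each count for list medians. DESeq2 1.42.0 was an alternative. Shares have exact Clopper-Pearson intervals (Python 3.11.15, scipy 1.17.1).

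Members and the 27 gene lists were chosen with earlier results of these data known. Named genes were all list members; the 12 genes per direction with the largest fold change outside the cell-cycle lists (at least 20 CPM, same direction in 5 of 5 libraries); and, per pair of libraries, the 8 per direction with intervals farthest from 1 (at least 50 UMIs). No doublet caller was run; the lymphoid condition and a stricter gate stood in for one. On simulated counts for the comparison of cycling with noncycling macrophages (7371 genes), 68 of 93 genes changed by 1 on the log2 scale and 106 of 107 changed by 2 were recovered.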

Additional observations from a re-analysis of the deposited data

Results flagged for a closer look

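Replication-dependent histone genes had a median log2 ratio of -1.10 for fusion against PBS in cycling macrophages, where 5 genes were compared, and 0.89 in noncycling macrophages, where 6 were; the opposite direction drew attention and was not tested. Type I interferon response genes had a median of 0.55 for fusion against PBS in cycling macrophages (2 of 11 higher, none lower). In noncycling macrophages the list median was -0.72, beside -0.14 over all genes. This contrast was likewise not tested and rests on 11 fusion cells.

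The C1q-high barcodes left out because they held a Cd3, Ncr1 or Cd79a UMI carried dividing cells that no comparison used. By the same Mki67 and Top2a condition 23.5% of them were dividing in fusion (exact 95% interval 16.5% to 31.6%) and 19.6% in anti-PD1 (14.5% to 25.7%), against 13.3% in PBS (7.49% to 21.4%). In combination the share was 9.43% (5.38% to 15.1%) and in IL15 superagonist 11.6% (6.66% to 18.5%). In fusion all 31 dividing ones held a Cd3 UMI and 24 held 3 or more. The fusion, anti-PD1 and PBS intervals overlap, the combination interval lies below that of fusion, and whether these barcodes hold 1 cell or 2 was not tested.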

How the results depend on the processing

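No paired analysis was possible because each treatment is 1 library, which holds for comparisons between treatments only. Between classes of cells, the fits over 5 libraries are paired by holding the library as a block; with no library block 793 genes were higher and 752 lower in cycling than in noncycling macrophages, against 1055 and 1131 with it. Counts fell to 376 higher and 456 lower with cells thinned to 5000 UMIs, of which 356 and 434 were among the calls above, and to 576 and 603 among barcodes with at least 10000 UMIs. That depth limit, shares of all barcodes with lymphoid barcodes kept and leaving out the cell with the most UMIs were chosen after seeing the data. DESeq2 gave 810.0 higher and 863 lower. Leaving out 1 library at a time gave 754 to 1219 higher and 844 to 1284 lower genes, and 13 to 15 higher and 50 to 56 lower cell-cycle genes against CD8 T cells. Across all alternatives 13 to 15 cell-cycle genes were higher and 50 to 68 lower in macrophages than in CD8 T cells.

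With at least 1 Mki67 or Top2a UMI, cycling shares of C1q-high macrophages were 14.2%, 13.1%, 18.6%, 12.3% and 12.4% in fusion, combination, IL15 superagonist, anti-PD1 and PBS. With at least 3 UMIs they were 2.76%, 6.56%, 4.04% and 3.67% in combination, IL15 superagonist, anti-PD1 and PBS, and 0.224%, 0.613%, 0.741% and 0.622% of all barcodes. Thinned shares were 2.39% in combination and 5.84% in IL15 superagonist, and keeping lymphoid barcodes gave 10.9% in fusion and 7.30% in anti-PD1, and 0.485% in fusion, 0.589% in combination and 1.55% in anti-PD1 of all barcodes.

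Genes called with at least 100 UMIs numbered 182, 229, 229 and 227 for fusion, combination, IL15 superagonist and anti-PD1 against PBS and 95 for fusion against combination; with thinned cells they numbered 150, 216, 191, 289 and 87. In thinned cells median log2 ratios for fusion against PBS were 0.31 for G2 and mitosis, -0.46 for Arg1 and Mmp12 genes and -0.31 for inflammatory genes. Inflammatory medians were -1.38 for combination and -0.55 for IL15 superagonist against PBS. For fusion against combination, thinned medians were -0.80 for macrophage identity, -0.61 for Arg1 and Mmp12 genes and -0.43 for interferon-gamma genes. Without barcodes holding T-cell or melanoma transcripts, medians were 0.28 for resident-type and -0.22 for monocyte genes in fusion against PBS, 0.21 for histones and -0.42 for Arg1 and Mmp12 genes in combination against PBS, and 1.00 for resident-type and -1.02 for monocyte genes in fusion against combination. With anti-PD1 in place of PBS, cholesterol genes had 0.32 in fusion and melanoma-cell transcripts 3.39 in combination. Without the cell with the most UMIs, S100a9 turned to 1.12 for fusion against PBS, Lyz1 to -0.12 for IL15 superagonist, Areg to -3.93 for anti-PD1 and Ccl24 to 0.20 for fusion against combination. The causes of these shifts were not tested. Of the values under alternatives, 303 of 319 list medians moved by less than 1.5-fold. In 98 of these 319 the alternative was scaling with TMM factors. That scaling shifts all ratios of a comparison alike, by too little to reach 1.5-fold. For counts of genes, 49 stayed within 1.5 times and 15 did not. Shares of C1q-high macrophages stayed inside the main interval in 17 cases and left it in 13. Shares of all barcodes did so in 8 and 7. Without the top cell 69 of 80 named gene ratios were still called, 7 kept their direction with no call and 4 turned round. Depth limits the fusion library most, with 11 cells.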
